A study of Homo sapiens with 3 samples.

Results

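The 9 human genes that encode subunits of the chaperonin CCT, also called TRiC, were examined in 3 RNA-seq libraries. They are TCP1, CCT2, CCT3, CCT4, CCT5, CCT6A, CCT6B, CCT7 and CCT8, chosen by name, and each has 1 row among the 43389 gene rows that the 3 deposited tables share. All 3 libraries were labelled HepG2, the name of an established cell line from a human liver cancer, with a wild-type genotype and with no treatment named, and they form 1 group. The levels are therefore those of 1 cell culture condition, and the comparisons run between genes within a library. Levels are given in TPM, a transcript abundance on the same total in each library, which is scaled for gene length, so the genes can be set against each other.

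CCT is a cytosolic folding machine made of back-to-back rings, each with 8 different subunits that sit in fixed positions. It encloses newly made proteins and folds them by cycles of ATP binding and hydrolysis. Actin and the tubulins are its best known substrates. Prefoldin, a smaller complex, hands unfolded actin and tubulin to CCT, and phosducin-like proteins act as its cochaperones. TCP1 encodes the alpha subunit, and CCT2, CCT3, CCT4, CCT5, CCT7 and CCT8 encode the beta, gamma, delta, epsilon, eta and theta subunits. The zeta position is encoded by CCT6A, which is expressed widely, and by CCT6B, which is known as a testis form.

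The label of the libraries was set against marker genes. The 8 hepatocyte genes tested encode secreted plasma proteins, and none of them reached 1 TPM in any library. ALB, APOA1, APOB, SERPINA1 and FGB were listed at 0 in all 3 libraries. The epithelial keratins KRT8 and KRT18 had 2609.6 ± 28.6 and 2017 ± 102 TPM (SD, n = 3), EPCAM was below 1 TPM in every library and CDH1 had 1.02 ± 0.0382 TPM (SD, n = 3). Among mesenchymal genes, VIM had 694 ± 48.1 TPM and COL1A1 had 6.93 ± 0.564 TPM (SD, n = 3), while COL1A2 was below 1 TPM in every library and SPARC was listed at 0. Of the blood genes, HBA1 had 39.6 ± 1.65 TPM (SD, n = 3), HBB was below 1 TPM and PTPRC was listed at 0. The values below are thus those of libraries labelled HepG2 in which the 8 hepatocyte genes tested were absent or nearly so. Whether the libraries came from the cell line that the label names was not tested, so the levels describe these libraries only. In bulk RNA, fewer cells that express a gene and less RNA per cell cannot be told apart. The tables give no read counts, but coverage per unit of FPKM (a level scaled for gene length and for the reads in a library, with no fixed total) gives their relative depth. Its maximum over genes put replicate 1 at 1.16 and replicate 2 at 1.12 times the depth of replicate 3.

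The 5′ ends of 5 subunit genes lay close to a gene on the opposite strand, so that the DNA between the deposited rows is short. These stretches are shown because they separate the row of a highly expressed CCT gene from the row of its neighbour. They need not adjoin the main start of the gene. The 5′ end of the row lies upstream of the main GENCODE v44 transcript by 883 bp for CCT7 and 359 bp for CCT5. The distance is 101 bp for TCP1, 80 bp for CCT6A and 15 bp for CCT4. Each is written 5′ to 3′ on the strand of the CCT gene and runs from the neighbour's row to that of the CCT gene, in GRCh38. Capitals mark matches, on either strand, to the CCAAT box and to the GC box GGGCGG. The ETS-type motif CTTCCGG and the heat shock element core GAANNTTC were searched as well.
CCT5 and ATPSCKMT (chr5:10249910-10249920, plus strand, 11 bp): aaaaaaaaaaa
CCT4 and COMMD1 (chr2:61888672-61888722, minus strand, 51 bp): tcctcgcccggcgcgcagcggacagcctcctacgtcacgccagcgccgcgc
CCT6A and PSPH (chr7:56051605-56051684, plus strand, 80 bp): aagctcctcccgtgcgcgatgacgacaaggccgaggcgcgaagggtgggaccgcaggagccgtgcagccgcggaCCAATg
TCP1 and MRPL18 (chr6:159789704-159789811, minus strand, 108 bp): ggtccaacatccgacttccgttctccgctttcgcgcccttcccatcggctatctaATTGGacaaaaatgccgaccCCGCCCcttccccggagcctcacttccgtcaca
CCT7 and PRADC1 (chr2:73233285-73233424, plus strand, 140 bp): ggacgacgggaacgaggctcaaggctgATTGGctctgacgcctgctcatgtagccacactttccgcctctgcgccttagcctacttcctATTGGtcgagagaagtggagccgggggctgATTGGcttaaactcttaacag

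The stretch beside CCT7 held 3 matches to CCAAT, those beside CCT6A and TCP1 held 1 each, and those beside CCT4 and CCT5 held 0. The stretch beside TCP1 also held 1 match to GGGCGG. No match to CTTCCGG or GAANNTTC was found in any of the 5.

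The 8 widely expressed subunits were abundant, between 247 and 817 TPM on average, whereas CCT6B was below 1 TPM in every library. CCT5 was the highest and TCP1 the lowest of the 8, and the highest was 3.30 times the lowest by mean TPM. CCT5, the epsilon subunit, had 852, 792 and 806 TPM in replicates 1, 2 and 3. CCT3, the gamma subunit, had 664, 607 and 606 TPM in the same libraries. The values of these genes did not overlap, and every other subunit was below both. CCT7, the eta subunit, had 501, 491 and 496 TPM, the smallest spread of the 8 with a coefficient of variation of 0.978%. CCT6A, the widely expressed zeta subunit, had 401, 381 and 386 TPM. CCT2, the beta subunit, had 357, 332 and 327 TPM. These genes filled the middle of the order, each below the one before it in all 3 libraries. CCT4, the delta subunit, had 303, 279 and 276 TPM. CCT8, the theta subunit, had 282, 272 and 275 TPM. TCP1, the alpha subunit and the gene for which the complex was named, had 254, 243 and 245 TPM. CCT4 and CCT8 overlapped, and TCP1 was below CCT8 in every library.

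**Figure D1:**
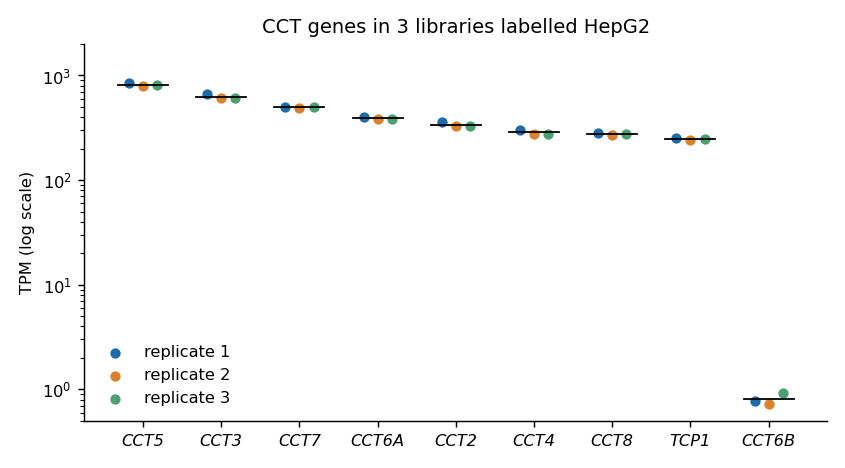
TPM of the 9 CCT genes on a log axis, with 1 point per library and a line at the mean of 3 libraries. The 8 widely expressed subunits lie between 243 and 852 TPM, and CCT6B lies between 0.730 and 0.917 TPM.

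Ranked by mean TPM among the 13753 genes that averaged 1 TPM or more, CCT5 was 143rd and TCP1 was 528th, so that even TCP1 exceeded 96.2% of these genes. Their summed share of a library ran from 0.340% to 0.361% of all TPM, a total of 3476 ± 120 TPM (SD, n = 3). The 5 genes nearest to the average of the 8 subunits, by Euclidean distance of log2(TPM + 1) over 3 libraries, were MORF4L2, PSAP, PDCD6, TPM3 and TIMP1, with distances of 0.019 to 0.056. With 3 libraries of 1 condition this likeness is almost wholly one of level.

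The steps between neighbours in the order of mean TPM were then measured. Of the 7 neighbouring pairs among the 8 subunits, 6 did not overlap. The order came from the same 3 libraries, so its direction in each of them is a description. By TPM the largest step was from CCT5 to CCT3, with a log2 ratio of 0.38 ± 0.025 (SD, n = 3), or 1.31-fold, but by the deposited coverage, the mean read depth over a gene, the same ratio was -0.29 ± 0.025 (SD, n = 3). By coverage 4 of these 7 pairs turned round, and the largest difference within a pair was between CCT3 and CCT7, at 0.69 ± 0.063 (SD, n = 3). These genes are neighbours by TPM only, since CCT6A, CCT5 and CCT4 lie between them by mean coverage. CCT7 exceeded CCT6A by 0.35 ± 0.026 and CCT3 exceeded CCT7 by 0.33 ± 0.064 on the log2 scale (SD, n = 3). The smallest step was from CCT4 to CCT8, with a log2 ratio of 0.047 ± 0.051 (SD, n = 3), which did not exceed its spread. Each pair had p = 0.25 when the signs of its 3 ratios were flipped in an exact permutation test (two-sided), and 0.25 after Benjamini-Hochberg adjustment over 7 pairs. This is the smallest p that 3 libraries allow, so no pair could pass a threshold of 0.05.

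Subunit balance was measured as the log2 ratio of each gene to the geometric mean of the 8 within a library, since the assembled ring holds 1 copy of each subunit. CCT5 stood 1.03 ± 0.012 above that mean, CCT3 0.65 ± 0.029 above and CCT7 0.31 ± 0.035 above (SD, n = 3). CCT6A was near it at -0.039 ± 0.011, followed by CCT2 at -0.24 ± 0.024 and CCT4 at -0.49 ± 0.028 (SD, n = 3). CCT8 was at -0.53 ± 0.023 and TCP1 at -0.69 ± 0.015 (SD, n = 3). Each ratio kept its sign in 3 of 3 libraries, with p = 0.25 by the same exact permutation test and 0.25 after adjustment over 8 genes, again the smallest possible. As a share of the summed TPM of the 8 genes, CCT5 made up 23.5% ± 0.156 and TCP1 7.12% ± 0.0807 (SD, n = 3).

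The balance also changed when coverage was used in place of TPM. By coverage the highest subunit was 2.03 times the lowest, and the SD of the log2 means among the 8 genes fell from 0.61 to 0.36. CCT5 dropped from 1.03 to 0.30 ± 0.012 above the mean and was passed by CCT3, at 0.58 ± 0.028, and by CCT6A, at 0.33 ± 0.012 (SD, n = 3). CCT7 moved from above the mean to -0.11 ± 0.035, and CCT4 stood at -0.086 ± 0.028 (SD, n = 3). CCT8 became the lowest at -0.44 ± 0.023, below TCP1 at -0.34 ± 0.015 (SD, n = 3). The 4 pairs that turned round did so in all 3 libraries and were CCT5 and CCT3, CCT7 and CCT6A, CCT2 and CCT4, and CCT8 and TCP1. Only CCT3, of the 3 genes above the mean by TPM, kept nearly the same place by either measure.

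**Figure D2:**
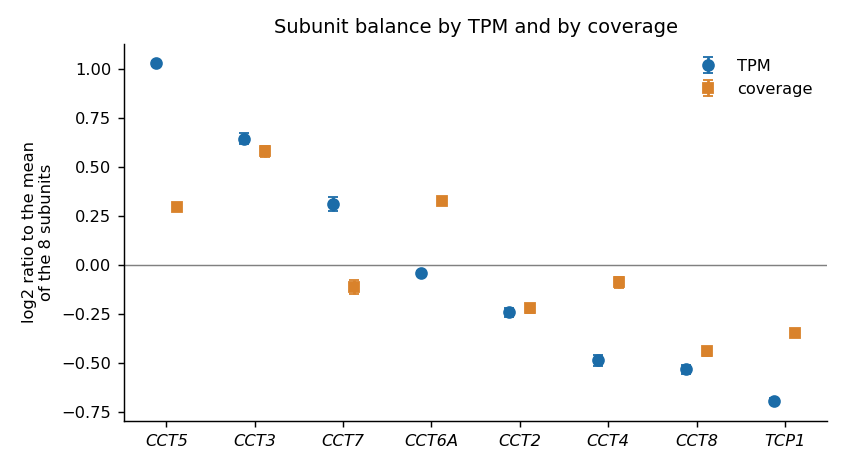
Log2 ratio of each subunit to the geometric mean of the 8 subunits within a library, by TPM (circles) and by coverage (squares), as the mean of 3 libraries with bars of 1 SD. CCT5 falls from 1.03 to 0.30, and CCT7 and CCT6A change sides of 0.

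The gap between the measures is a property of each gene and was almost the same in every library. The ratio of coverage to FPKM, relative to the highest such ratio in the library, was 0.453 for CCT5 and 0.561 for CCT7 but 0.993 for CCT4, 0.970 for CCT6A and 0.959 for TCP1, as means of 3 libraries. CCT3 was at 0.720, CCT2 at 0.763 and CCT8 at 0.803. Across the 11965 genes above 1 FPKM in every library the median was 0.789, and 25.9% of them were below CCT5. The SD between libraries was at most 0.000546 for these 8 genes. RefSeq, on GRCh38.p14, lists 6 transcripts for CCT7, 5 for CCT5 and 2 each for CCT4, CCT6A and TCP1, the 3 genes with the highest ratios. It lists 4 each for CCT3 and CCT8 and 2 for CCT2, so the number of transcripts did not order the genes fully. The part of transcript structure in the ratio was not tested.

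CCT5 has annotated transcripts of very different length. In GENCODE v44 the main CCT5 transcript is 3293 nt long with a coding region of 1623 nt and 11 exons, and it ends at 10266389 on the plus strand of chromosome 5. Another 4 protein-coding transcripts hold the same end of the coding region but stop between 10264902 and 10265078 and are 1728 to 1997 nt long. An unnamed lncRNA gene on the minus strand, from 10264597 to 10267146, overlaps the CCT5 row over 1816 bp at this end. None of the deposited rows used here overlaps that of CCT5, so this lncRNA gene had no level of its own. The deposited values are 1 per gene and were not divided among these transcripts, and a read from this stretch cannot be assigned to either strand unless the counting used strand, which the sources used here do not state.

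Sequence of the other subunits also lay in other annotated genes, to different degrees. For each main transcript, every word of 50 and of 150 bases, the read length, was searched without mismatches on both strands in the 252835 transcripts of GENCODE v44. For CCT5, 50.4% of the 150-base words lay also in another gene, all of them in the lncRNA on the opposite strand. For TCP1 the share was 13.9%, all in ACAT2, a gene of acetyl-CoA metabolism whose 3′ end overlaps that of TCP1 over 615 bp on the opposite strand. ACAT2 had 82.3 ± 1.46 TPM (SD, n = 3), against 247 ± 5.85 TPM for TCP1 (SD, n = 3). For CCT4 the share was 5.70%, in an unnamed lncRNA gene on the opposite strand. The lncRNA genes at CCT5 and CCT4 are annotated at the same place as the subunit gene. Neither had an overlapping row among those used here, so no deposited level was divided with them. The other 6 genes had 0 such words. With 50-base words CCT8 shared 11.4%, mostly with the processed pseudogene CCT8P1, and CCT6A shared 7.61%. The main transcripts of CCT2, CCT3, CCT7 and CCT6B shared 0 words of either length. The search covered main transcripts and not whole rows, and the rows of CCT3 and CCT6B overlap genes on the opposite strand. Small nucleolar RNA genes lie within 2 members, SNORA20 and SNORA29 in TCP1 and SNORA22B and SNORA15 in CCT6A, and each averaged under 2 TPM.

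**Figure D3:**
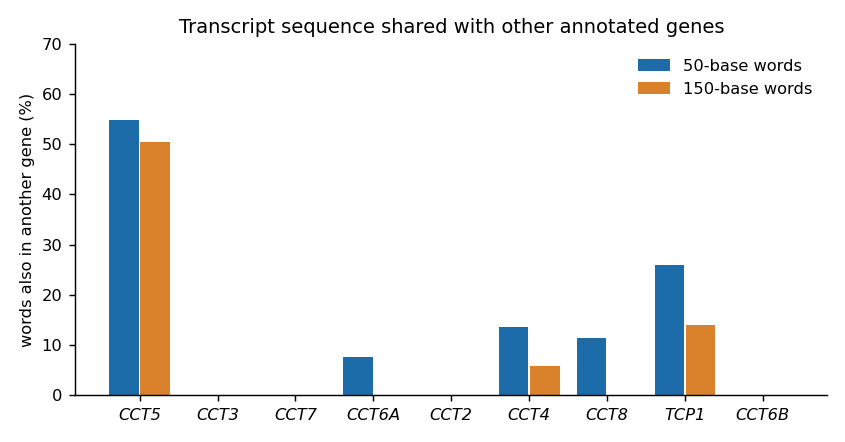
Share of the 50-base and 150-base words of each gene's main GENCODE v44 transcript that occur in a transcript of another gene, on either strand. CCT5 stands at 54.9% and 50.4%, TCP1 at 26.0% and 13.9%, and 4 genes are at 0. The 150-base words of CCT5 were shared with an opposite-strand lncRNA gene that had no overlapping row among those used here.

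The zeta position is filled almost wholly by CCT6A at the RNA level. CCT6B had 0.774, 0.730 and 0.917 TPM in replicates 1, 2 and 3, and CCT6A was 518, 521 and 421 times as high in the same libraries. On the log2(TPM + 1) scale, which understates the change of low genes, the difference was 7.76 ± 0.088 (SD, n = 3), with CCT6A higher in 3 of 3 libraries. By the exact permutation test of signs p was 0.25, the smallest possible. The row of CCT6B on chromosome 17 runs from 34927859 to 34981222 on the minus strand, which is 19762 bp further at the 5′ end than its main GENCODE v44 transcript. That row contains ZNF830, a zinc finger gene on the plus strand with 11.2 ± 0.453 TPM, and it overlaps LIG3, a DNA ligase gene with 21.9 ± 1.01 TPM (SD, n = 3), over 725 bp. Both neighbours were higher than CCT6B in every library.

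Another pair of zeta-like rows was present, the pseudogenes CCT6P1 and CCT6P3 on chromosome 7. CCT6P1 had 6.16, 5.16 and 5.29 TPM and CCT6P3 had 2.46, 2.25 and 2.34 TPM in replicates 1, 2 and 3, both above CCT6B in every library. Their means were 1.42% and 0.604% of that of CCT6A. Over the aligned part of the CCT6A coding region, CCT6P1 was 94.9% and CCT6P3 95.3% identical to it, and CCT6B was 81.5% identical. A stretch of the coding region of CCT6A, bases 636 to 695 counted from the A of its start codon, shows how far these sequences can be told apart by short reads. Capitals mark bases that differ from CCT6A, and the stretch was taken where CCT6P1 and CCT6P3 differ from it most within 60 bases.
CCT6A: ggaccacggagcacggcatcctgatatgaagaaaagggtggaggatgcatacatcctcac
CCT6P1: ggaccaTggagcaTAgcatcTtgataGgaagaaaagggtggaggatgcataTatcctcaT
CCT6P3: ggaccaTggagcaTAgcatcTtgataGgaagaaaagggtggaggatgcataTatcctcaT
CCT6B: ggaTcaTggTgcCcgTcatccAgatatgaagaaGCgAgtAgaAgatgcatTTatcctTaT

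CCT6P1 and CCT6P3 each had 7 differences from CCT6A here, and CCT6B had 15. No 150-base word of the CCT6A transcript was found in either pseudogene, while 4.22% of its 50-base words were found in CCT6P3 and 1.62% in CCT6P1. Adding the TPM of both pseudogenes to CCT6A left its log2 ratio to the mean of the 8 subunits below 0, at -0.013.

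In the 5 pairs shown above, the neighbour was expressed at a lower level than the CCT gene in every library. LIG3, whose 5′ end lies 724 bp from that of the CCT6B row, was higher than CCT6B in every library. That row reaches 19762 bp upstream of the main GENCODE v44 transcript of CCT6B. The 5′ end of this transcript, at 34961460, is nearer to ZNF830, which starts at 34961540. CCT5 was 43.2 times as high as ATPSCKMT, which encodes a methyltransferase of the mitochondrial ATP synthase and had 20.2, 18.9 and 17.7 TPM. CCT7 was 19.5 times as high as PRADC1, with 27.9, 22.6 and 26.0 TPM. CCT6A was 16.9 times as high as PSPH, a phosphatase of serine synthesis with 27.0, 22.3 and 20.2 TPM. CCT4 was 7.39 times as high as COMMD1, with 36.7, 40.6 and 38.7 TPM. The narrowest gap was at TCP1, which was 1.87 times as high as the mitochondrial ribosomal protein gene MRPL18, with 128, 139 and 129 TPM. An opposite-strand row with its 5′ end within 1000 bp was present for 6 of the 8 subunits, the other being CCT2 with the microRNA row MIR3913-1, listed at 0. Of the 8419 genes tested that averaged 10 TPM or more, 31.8% had such a row. CCT3 fell just outside this limit, 1101 bp from the 5′ end of TSACC, a gene whose row overlaps its own over 1102 bp and which had 1.31 ± 0.821 TPM (SD, n = 3). These distances use the deposited rows, whose 5′ ends lie up to 883 bp upstream of the main GENCODE v44 transcript in the 8 subunits. Measured from the main transcript of the CCT gene to the neighbour's row, CCT3 would fall inside the limit and CCT7 outside it.

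**Figure D4:**
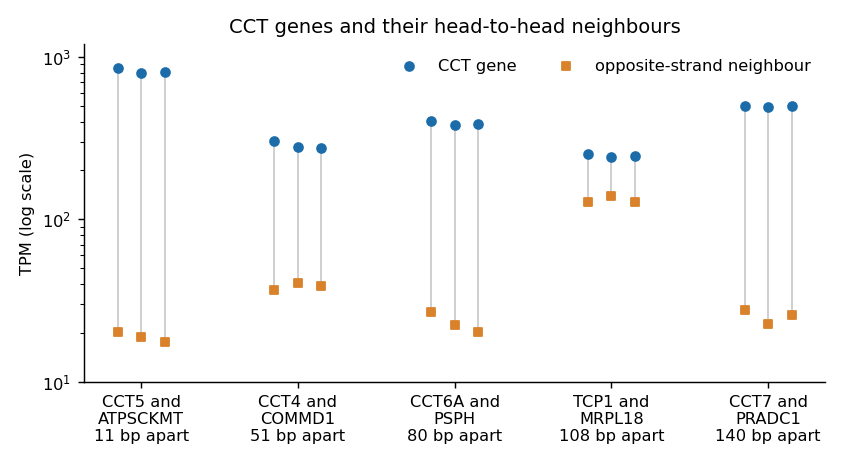
TPM, on a log axis, of 5 CCT genes (circles) and of the opposite-strand gene that faces them (squares), with 1 line per library, ordered by the distance between the rows. The CCT gene is higher in all 3 libraries of each pair, by 1.87-fold for TCP1 and 43.2-fold for CCT5.

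Promoter windows of RefSeq, from 250 bases before to 50 after an annotated start on GRCh38.p14, were matched for 8 of the 9 genes, with no window for CCT6A. CCAAT on either strand lay in 5 of the 10 windows of these genes, those of CCT2, CCT3, CCT6B, CCT8 and TCP1. It lay in 34.6% of the 35116 windows of all genes. The window of CCT7, from 73234058 to 73234357, held no CCAAT and does not include the stretch beside CCT7 shown above. That of CCT5, from 10250287 to 10250586, lies downstream of the start of its main GENCODE v44 transcript, at 10250280. It therefore holds no sequence from before that start. GGGCGG lay in 7 of the 10 windows, which belong to 6 of the 8 genes, and in 45.0% of all windows. GAANNTTC, the core of a heat shock element, lay in 2 of the 10 windows, of CCT2 and TCP1, and in 6.77% of all windows. The match in the TCP1 window lies within the row of MRPL18. That window includes the whole stretch beside TCP1 shown above, and its CCAAT and GGGCGG are the matches already given there. CTTCCGG lay in 1 of the 10, of CCT2, and in 10.3% of all. The window of CCT6B, the gene below 1 TPM, held both CCAAT and GGGCGG, and the share of all windows with both was not computed.

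The libraries gave close values for the subunits. None of the 8 had a range of log2(TPM + 1) above 0.25 over the 3 libraries, against 11.1% of the 8435 genes that averaged 10 TPM or more. Their median coefficient of variation was 3.29%, and it was 3.39% over the 387 genes with a mean between those of TCP1 and CCT5. All 8 were highest in replicate 1, as were 62.5% of the 8435 genes that averaged 10 TPM or more. After median-of-ratios scaling 3 of the 8 and 38.1% of all these genes were highest in replicate 1, so the common order of the libraries was lost with another scaling.

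The partners of CCT were expressed over a wide range. Each of the 6 prefoldin subunits was above 10 TPM throughout, from PFDN1 at 72.7 ± 2.16 TPM to PFDN5 at 426 ± 11.8 TPM (SD, n = 3), with a median of 107 TPM against 364 TPM for the 8 subunits. Of 4 phosducin-like cochaperones, 3 had at least 10 TPM, the highest being TXNDC9 at 66.5 ± 6.30 TPM (SD, n = 3), and PDCL2 was listed at 0 in all 3 libraries. PDCD5, a small protein that binds CCT, had 263 ± 28.3 TPM (SD, n = 3).

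Of 14 actin and tubulin genes, whose products CCT folds, 12 were above 10 TPM in each library and 6 had a higher mean than TCP1. ACTB, cytoplasmic beta-actin, was the highest with 5265, 4889 and 5009 TPM, and TUBA1B, an alpha-tubulin, had 3597 ± 93.5 TPM (SD, n = 3). The lowest was TUBB4A at 0.343 ± 0.0993 TPM (SD, n = 3). Among 10 other proteins known to fold or assemble through CCT, 9 had at least 10 TPM. GNB2, a G protein beta subunit, was the highest at 295 ± 5.62 TPM (SD, n = 3). RPTOR, a subunit of mTORC1, was the lowest of the 10 and below 10 TPM in every library, at 9.60 ± 0.197 TPM (SD, n = 3). The mitotic activator CDC20 had 272 ± 4.83 TPM and the mitotic kinase PLK1 230 ± 9.44 TPM (SD, n = 3). All 5 tubulin cofactors, which take tubulin over from CCT, were above 10 TPM, with TBCA the highest at 439 ± 16.1 TPM (SD, n = 3). TBCC was the lowest, with 14.8, 14.7 and 15.5 TPM in replicates 1, 2 and 3.

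Related chaperonins differed widely. HSPD1 and HSPE1, the mitochondrial chaperonin and its lid, had 877 ± 40.7 and 431 ± 52.4 TPM (SD, n = 3), in the range of the CCT subunits or above it. The chaperonin-like genes linked to Bardet-Biedl syndrome were low, with MKKS at 12.4 ± 0.208, BBS10 at 5.34 ± 0.536 and BBS12 at 1.61 ± 0.0366 TPM (SD, n = 3). CCT8L2 was listed at 0 in all 3 libraries. The 7 genes of the R2TP and prefoldin-like complexes were likewise all above 10 TPM, from PDRG1 at 35.6 ± 1.40 to UXT at 275 ± 15.1 TPM (SD, n = 3).

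The spread among CCT subunits was set beside that of other complexes whose subunits assemble in fixed numbers. By mean TPM the highest subunit was 3.30 times the lowest in CCT, 2.81 times in Arp2/3, 5.86 times in prefoldin, 9.58 times in the RNA exosome core and 11.8 times in the 20S proteasome. By coverage the ratio was 2.03 in CCT and 12.7, 36.0, 20.1 and 74.2 in the other 4, in the same order. Each ratio rests on the highest and the lowest gene alone, and coverage relative to TPM differs between genes. In the 20S proteasome PSMA6, the lowest by coverage, had a mean coverage of 100 at 262 TPM, while PSMA2 had 1150 at 193 TPM. The CCT list leaves out CCT6B and the Arp2/3 list holds ARPC1B without ARPC1A. These are descriptions of 5 lists of 6 to 14 genes, and the difference in spread between them was not tested.

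**Figure D5:**
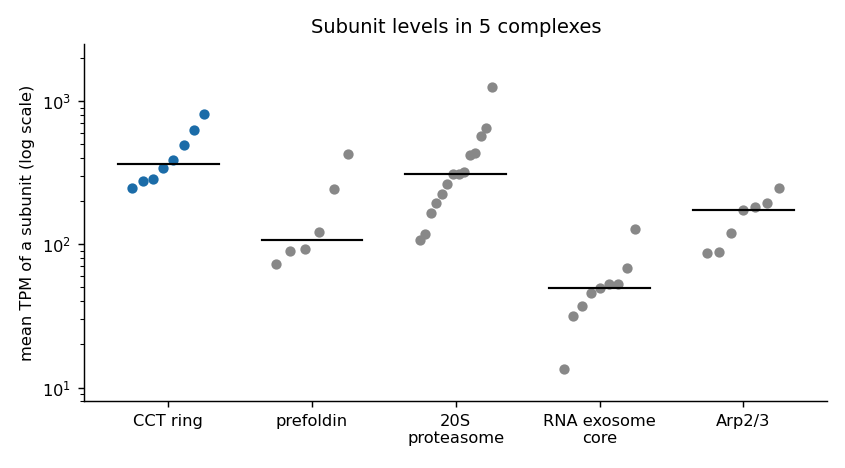
Mean TPM over 3 libraries, on a log axis, of the genes listed for 5 complexes, with 1 point per gene and a line at the median, CCT6B left out. The 8 CCT genes lie between 247 and 817 TPM, and those of the 20S proteasome between 106 and 1250 TPM.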

How the data were processed

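RNA from 3 libraries labelled wild-type HepG2 was sequenced by the authors as 150 bp paired-end reads. Per the labels and the methods, reads were filtered with FastQC 0.11.8 and Trim Galore 0.6.2 and mapped to GRCh38 with STAR 2.6.1a, and StringTie is named without a version. The annotation and the strand setting are not given in the sources used here. The authors deposited 1 table per library with each gene's coverage (a signal of mean read depth with no scaling for library size), FPKM and TPM. The deposited TPM are scaled to the same sum in each library, and the deposited FPKM differ from them by 1 factor per library. The tables hold no counts, so no counting error or detection limit was given, and precision is the SD over 3 libraries. Whether the libraries came from separate cultures is not stated, so this spread may be technical.

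The 3 tables were merged on gene name, reference, strand and position, and members were taken on whole chromosomes, leaving out 4069 rows on other references, among which was no member. TPM were used without a pseudocount for ratios between subunits, and with a pseudocount of 1 for CCT6A against CCT6B and for ranges. The tests were two-sided exact sign-flip permutations over 3 libraries with Benjamini-Hochberg adjustment. The range calculation was run on data simulated over 8435 genes, with noise far below the limit and changes far above it. It recovered 200 of 200 changed genes with 0 false calls. These settings fixed that outcome, so it checks the code and not the limit. In the real data the median range of these genes was 0.129. GENCODE v44 gave transcripts, and RefSeq on GRCh38.p14 gave promoter windows and transcript numbers. The row spans of CCT4 and CCT5 equal those of RefSeq on GRCh38.p14. Genes named were the members, their pseudogene and overlapping rows, the highest and lowest of each list, and the 5 genes nearest in level. Other genes of the lists, and neighbours within 1000 bp, were chosen after their values were seen. The members and lists were chosen with earlier results of these data known. Python 3.11.15, numpy 2.4.6, pandas 2.3.3, Biopython 1.88 and matplotlib 3.10.9 were used.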

Additional observations from a re-analysis of the deposited data

How the results depend on the processing

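No paired analysis was possible because all 3 libraries belong to 1 group. Coverage in place of TPM changed the balance of the subunits most. It lowered the SD of the log2 means among the 8 genes from 0.61 to 0.36 and the ratio of the highest to the lowest from 3.30 to 2.03. It turned the ratio to the mean of the 8 subunits to 0.33 for CCT6A and to -0.11 for CCT7. It also turned the log2 ratio of CCT5 to CCT3 to -0.29, of CCT7 to CCT6A to -0.44, of CCT2 to CCT4 to -0.13 and of CCT8 to TCP1 to -0.095. The cause was not tested. For these ratios and both measures of spread, leaving out a replicate, a pseudocount of 1 and added pseudogene rows, each where it was run, changed no direction and moved no spread by 1 SD between libraries. FPKM differ from TPM by 1 factor per library, so they could not change a ratio within a library. CCT6A exceeded CCT6B under every setting run. Scaling without mitochondrially encoded genes raised all 9 levels by a factor of 1.25. Genes with a range above 0.25 numbered 937, against 2741 with a minimum mean of 1 TPM and 5079 with none, which test more genes, and from 248 to 673 with a replicate left out, lowest without replicate 1 and 426 without replicate 3. A range can only shrink when a library is removed. None of the 8 subunits was among them under any of these settings. The comparison of neighbours by coverage and without each replicate, and the median-of-ratios scaling of the order of libraries, were added after the data were seen. The missing read counts limit what can be said of CCT6B and of genes listed at 0.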
